A study of Mus musculus with 46 samples.

Results

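Multipotent germline stem cells made by knocking down Dmrt1 and p53, called Dmrt mGS here, were compared with induced pluripotent stem cells (iPS) on mouse whole-transcript arrays. The samples were chosen by title: 6 arrays of Dmrt mGS lines 1, 2 and 3 and 6 arrays of iPS lines 1, 2 and 5, with 2 cultures a line, which makes 12 of the 46 arrays and 6 of the 23 lines. Dmrt mGS came from germline stem (GS) cells of DBA/2 mice with a GFP transgene, by lentiviral knockdown of p53 together with Dmrt1. The iPS lines were of the same strain with the same transgene and received retroviral Oct4, Sox2, Klf4 and c-myc. The remaining groups are used only where they show whether a difference belongs to Dmrt mGS or to iPS: lentiviral Dnmt mGS (knockdown of Dnmt1 and p53), Sox2 mGS and Oct4 mGS (Sox2 or Oct4 with p53 knockdown) with 3 lines each, 2 mGS lines with no labelled treatment (called spontaneous mGS here), 3 embryonic stem (ES) lines of other strains and 3 GS lines, the only ones grown in a medium with GDNF. Dmrt mGS and iPS grew alike on mouse embryonic fibroblasts with serum and LIF, and a short plating on gelatin was used to remove the fibroblasts ahead of RNA extraction. The labels do not say whether a line is a single clone, whether lines share an animal, or from which cell type iPS were made, so that p-values measure the spread between these lines only.

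GS cells are spermatogonial stem cells kept in culture. Dmrt1 encodes a DM-domain transcription factor of the testis, which in the mouse holds spermatogonia in the mitotic, undifferentiated program and restrains teratoma formation, while p53 stops or kills cells after DNA damage and limits reprogramming. Dmrt mGS are GS cells that turned to ES-like growth after both were depleted, as the study describes them. iPS cells reach a similar state from forced expression of the reprogramming factors, and the comparison asks what still separates cells that arrived by these routes.

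Levels are intensities as deposited, averaged over the cultures of a line on the log2 scale, and are listed in the order Dmrt mGS 1, 2 and 3 and iPS 1, 2 and 5. Differences are mean log2 intensity of Dmrt mGS minus that of iPS, ± limma's standard error, with n = 3 lines a group, and a gene rose or fell only where limma's Benjamini-Hochberg adjusted p over 19938 genes was below 0.05. Array medians of the 12 arrays were 215.4 to 238.0, and 161 intensity units, the 95th percentile of 1027 olfactory receptor genes, is taken as background. Where the dimmer group lay below background and the brighter one above it, a fold is a lower bound, taken as the ratio of the brighter mean to background. All 8 naive pluripotency markers examined (Nanog, Pou5f1, Sox2, Esrrb, Zfp42, Fgf4, Tdgf1 and Dppa5a) were above background in every one of the 6 lines. Of 6 spermatogonial and germline markers, 4 (Ret, Gfra1, Ddx4 and Dazl) were above it in at least one line of each group, 3 of them in all Dmrt mGS lines and 4 in all iPS lines, and Zbtb16 and Mageb4 in none. Of 4 testis somatic markers Sox9 was above it in all 6 lines, and Amh, Cyp17a1 and Star in none.

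Dmrt mGS 1 stood apart from the other two Dmrt mGS lines. Among 12749 genes with a mean above background, 1185 differed by over 2-fold between Dmrt mGS 1 and Dmrt mGS 2 and 995 between Dmrt mGS 1 and Dmrt mGS 3, against 3 between Dmrt mGS 2 and 3. Pairs of iPS lines differed in 64 to 145 genes. The 2 cultures of a line differed in 3 genes for Dmrt mGS 1, 35 for iPS 5 and 0 or 1 for the other lines. Values without Dmrt mGS 1 are therefore given beside single genes whose difference it moves by over 1.5 times, except for the chromosomal neighbours of Mid1 and Fam120c.

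Feeder and fibroblast genes were high in Dmrt mGS 2 and 3. The geometric mean level of the 23 genes measured was 309, 1456 and 1233 in Dmrt mGS, against 416, 498 and 564 in iPS. Their summed level was 17960.2 to 49291 in Dmrt mGS, against 20141 to 22939.6 in iPS, and 23 of 23 had a group mean above background in Dmrt mGS, against 20 in iPS. The groups overlapped in the mean level, since Dmrt mGS 1 lay below every iPS line. By limma, 0 of the 23 passed the adjusted threshold. At an unadjusted limma p below 0.05, 2 were higher and 0 lower, beside 12.7% of all genes higher and 6.38% lower. The median difference was 0.90, or 1.44 without Dmrt mGS 1. Dcn, a matrix proteoglycan gene, had 1090.2, 1774 and 1482 in Dmrt mGS, against 324, 412 and 700.2 in iPS (1.65, adjusted p = 0.21). Lox, which encodes a collagen cross-linking enzyme, had 670.4, 2379 and 1863 in Dmrt mGS, against 445, 655 and 523 in iPS (1.43, adjusted p = 0.26). Lum, another matrix proteoglycan gene, was below background in each iPS line, with 116, 341 and 251 in Dmrt mGS, against 51.3, 73.3 and 118 in iPS. In bulk RNA, more cells of a type and more RNA per cell cannot be told apart. With the feeder level of each line as a covariate, 423 genes rose and 403 fell, and the 24 called genes with the highest or lowest differences kept their calls.

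**Figure D1:**
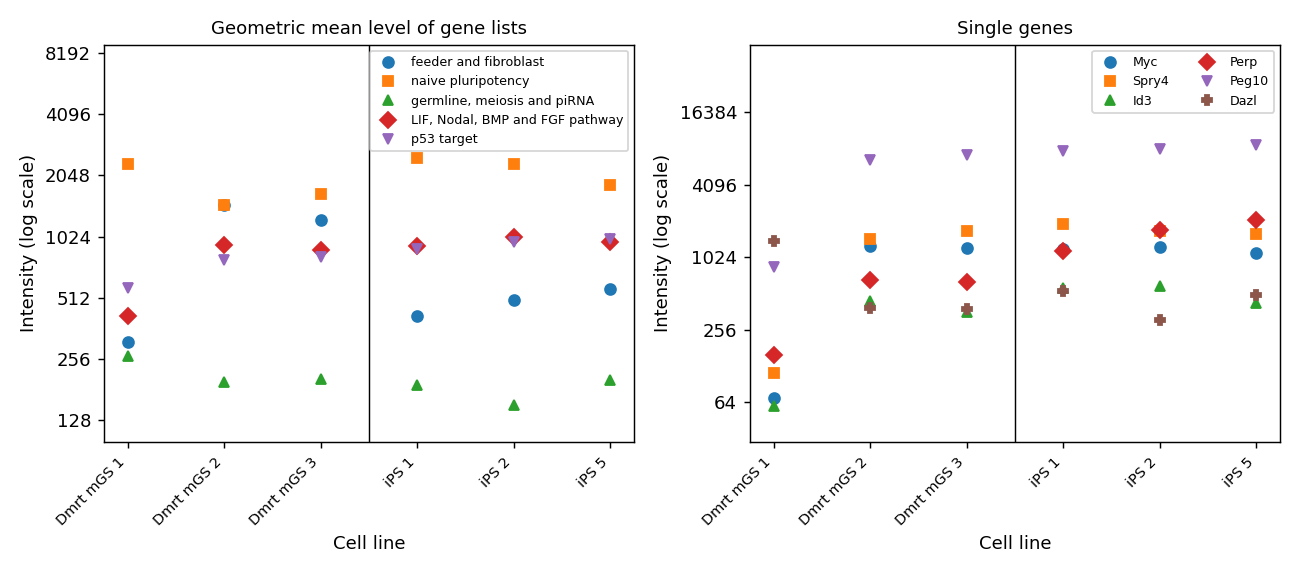
Geometric mean level of 5 gene lists (left) and intensity of 6 genes (right), both on a log scale, in the 3 Dmrt mGS lines and the 3 iPS lines. Points are lines. Dmrt mGS 1 lies below the other 5 lines for Myc, Spry4, Id3, Perp and Peg10 and above them for Dazl, while Dmrt mGS 2 and 3 lie above the rest for the feeder list.

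Of 19938 genes, 71 rose and 98 fell in Dmrt mGS relative to iPS, which is 0.848% of the genes tested (0.356% higher and 0.492% lower). The 3 lines of one group lay wholly above or below those of the other in all 169 called genes, as they did in 29.1% of all genes. The brighter group was above background in 148 of the 169. The 12 largest falls among genes above background included Mid1, an X-linked ubiquitin ligase gene, the DNA repair gene Xrcc5 and microRNA genes of the Mir17, Mir106a and Mir15b clusters, while the rises were smaller and led by Gm7265, Fam120c, Zcwpw1 and Chac1. The median difference over all genes was 0.08. With each array centred on its median, 46 genes rose and 300 fell. Without Dmrt mGS 1, 21 rose and 36 fell, and without iPS 1 it was 2 and 15. In the fit of all lines and in all 6 fits that left out a line of either group, the same 16 genes passed, 2 higher and 14 lower: Wdfy3 and D130040H23Rik, and Mid1, AU015836, Xrcc5, Tsfm, Nipsnap3b, Fam72a, Katna1, Rpp30, BC065397, Zbtb11os1, 0610040B10Rik, Mir15b, Mir19b-2 and Mir20b. Zbtb11os1 and Mir20b were below background in both groups.

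Further comparisons set Dmrt mGS against the mean of the Dnmt, Sox2 and Oct4 routes, which share the p53 knockdown and the GS source, and against spontaneous mGS. They use the same Dmrt mGS lines and are given beside single genes to show where iPS lie. Against the other routes 29 genes rose and 34 fell (0.316%). Left out in turn, the 9 lines of those routes gave 38 to 226 called genes (226 without Oct4 mGS 3), and the Dmrt mGS lines 1, 2 and 3 gave 24, 7 and 2. Against spontaneous mGS 4 rose and 9 fell (0.0652%), with 1 and 8 genes passing without Dmrt mGS 2 and 3, and 5 and 9 without spontaneous mGS 1 and 2. Without Dmrt mGS 1, limma's adjusted threshold was passed by 0 genes and an unadjusted p below 0.05 by 1288, so that each call against spontaneous mGS named below was lost without that line.

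**Figure D2:**
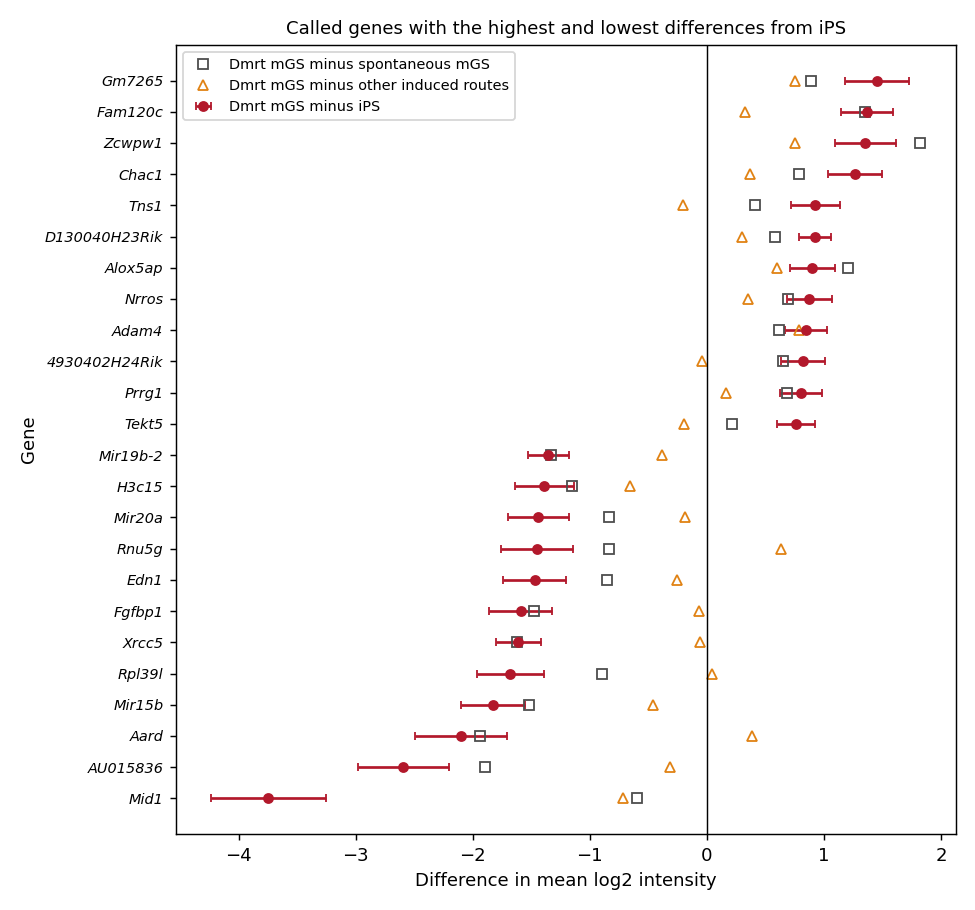
Mean log2 intensity differences for the 24 called genes at the extremes, 12 higher and 12 lower in Dmrt mGS than in iPS (red points, bars show limma's standard error), with the differences of Dmrt mGS from spontaneous mGS (squares) and from the mean of the other induced routes (triangles). Mid1 lies farthest from 0 at −3.74 against iPS but at −0.60 against spontaneous mGS, and the triangles of Xrcc5, Fgfbp1 and Rpl39l lie close to 0.

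The knockdown target was read first. Dmrt1 had intensities of 191, 413 and 554 in Dmrt mGS, against 274, 229.6 and 572 in iPS, and the groups overlapped (0.09 ± 0.42, adjusted p = 0.92, and 0.53 without Dmrt mGS 1). GS lines, in which the factor is in use, read 3379 to 4219.5, so that both groups were far below GS and the level of Dmrt1 does not separate knockdown lines from lines without it. Trp53 was not analysed here. The reprogramming factors delivered to iPS are transcription factors of the ES network. Pou5f1, which encodes Oct4, had 5362, 5367 and 5539.9 in Dmrt mGS, against 5234, 5056 and 4539 in iPS (0.14 ± 0.24, adjusted p = 0.76), and Sox2 had 4772, 3657 and 3868 in Dmrt mGS, against 4627, 4297 and 4071 in iPS (−0.09 ± 0.45, adjusted p = 0.93, and −0.20 without Dmrt mGS 1). Klf4 had 852, 854 and 1085 in Dmrt mGS, against 2452, 2689 and 1490.4 in iPS, with every Dmrt mGS line below every iPS line, but did not pass (−1.21 ± 0.45, adjusted p = 0.17). Myc had 69.6, 1264 and 1234 in Dmrt mGS, against 1206, 1245 and 1116 in iPS (−1.32 ± 1.04, adjusted p = 0.49): it was below background in Dmrt mGS 1 and at the level of iPS in Dmrt mGS 2 and 3. Without Dmrt mGS 1 its difference was 0.07. It is not known here whether the probe sets of these factors detect the viral copies. Of 9 measured members of the DM-domain family 0 passed limma's adjusted threshold, 3 were higher and 0 lower at an unadjusted p below 0.05, beside 12.7% and 6.38% of all genes, and the median difference was 0.18.

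Mid1 and Fam120c were the genes given to mark the comparison. Mid1 encodes a microtubule-bound ubiquitin ligase whose gene crosses the pseudoautosomal boundary of the X chromosome in laboratory mice. By culture it had 154 and 165, 475 and 419, and 346 and 305 in Dmrt mGS 1, 2 and 3, against 3743 and 3600.4, 3814 and 3502, and 4404 and 3897 in iPS 1, 2 and 5. Every iPS culture was several times brighter than every Dmrt mGS culture (−3.74 ± 0.49, adjusted p = 0.0016 over lines). Outside iPS the 20 lines of the other 7 groups lay between 81.1 and 787, so that the iPS lines were the ones that stood outside the range of the rest. Its difference from spontaneous mGS was −0.60, adjusted p = 0.74 and from the other induced routes −0.71, adjusted p = 0.57.

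Fam120c, an X-linked paralogue of the RNA-binding protein gene Fam120a, had 321 and 333, 212 and 213, and 171 and 165 in the cultures of Dmrt mGS 1, 2 and 3, against 82.2 and 93.0, 82.1 and 76.6, and 96.4 and 100.5 in those of iPS 1, 2 and 5. It was above background in Dmrt mGS and below it in iPS, at least 1.41-fold higher (1.37 ± 0.22, adjusted p = 0.0078). The call was lost without iPS 1 (1.36) or iPS 2 (1.29). Fam120c varied among the other groups as well. GS lines read 235 to 291 and Dnmt mGS 241 to 274, Sox2 mGS and Oct4 mGS read 125 to 208 and 118 to 175, while ES read 94.4 to 121 and spontaneous mGS 73.5 to 108. Neighbouring genes on the X chromosome (order in GRCm38.p6) did not pass. Hccs and Amelx, the nearest measured genes on one side of Mid1, differed by −0.09 and 0.14, and G530011O06Rik, on the other side, by −0.53 (adjusted p = 0.081), below background in all 6 lines (93.8, 102 and 108 in Dmrt mGS, against 142, 149 and 147 in iPS). Beside Fam120c, A230072E10Rik differed by 0.37 (adjusted p = 0.1), Wnk3 by −0.16 and Phf8 by 0.30. Of 15 X-linked genes listed around the markers, Fam120c rose, Mid1 fell and 13 did not pass. On the whole X chromosome 12 of 742 measured genes passed, 2 higher and 10 lower, beside 0.848% of all genes (0.356% higher and 0.492% lower). The 12 include Mid1 and Fam120c themselves, and 4 of the 10 lower ones are neighbours in the Mir106a cluster.

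**Figure D3:**
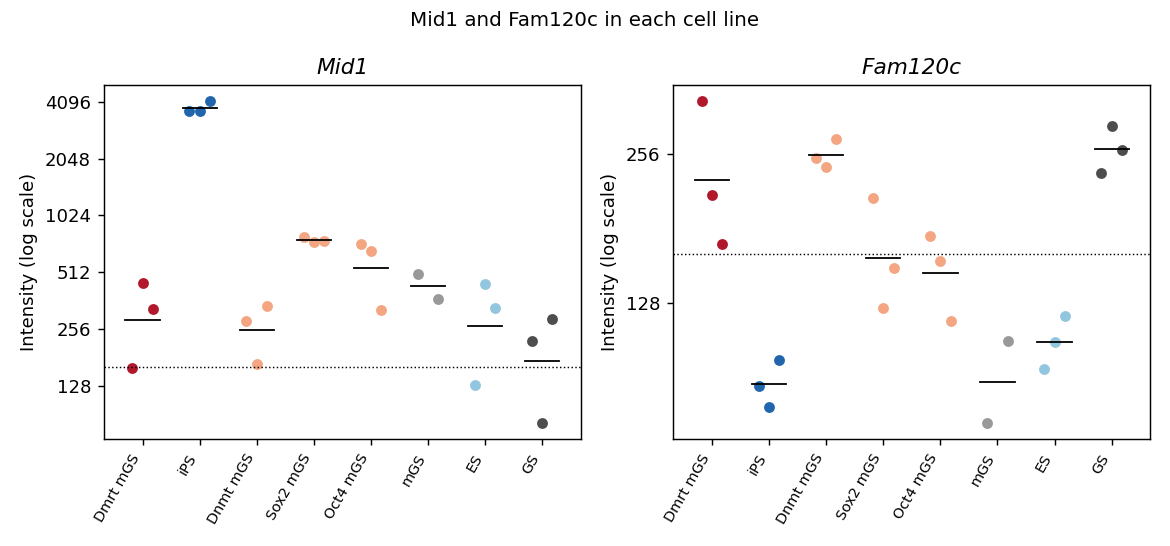
Intensity of Mid1 and Fam120c (log scale) in each line of the 8 groups. Points are lines, bars are means of log2 values and the dotted line is background. Only iPS stands out for Mid1, whereas for Fam120c each Dmrt mGS line lies above each iPS, ES and spontaneous mGS line.

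The genes that rose most in Dmrt mGS, Fam120c aside, included members with known roles in male germ cells. Zcwpw1, a histone-methylation reader of mouse meiotic recombination, had 1245, 699 and 698 in Dmrt mGS, against 382, 257 and 373 in iPS (1.35 ± 0.26, adjusted p = 0.018). The lines did not overlap, and Dmrt mGS 1 was the highest. GS read 1598 to 2197, Dnmt mGS 999 to 1252 and spontaneous mGS 204 to 281, and Zcwpw1 also rose relative to spontaneous mGS (1.82, adjusted p = 0.02). Adam4, a testis member of the ADAM protease family, had 240.0, 170.0 and 153 in Dmrt mGS, against 93.3, 109.7 and 105 in iPS (0.84 ± 0.18, adjusted p = 0.032). Its GS lines read 86.6 to 122, and Dmrt mGS 3 was below background. Tekt5, a tektin of the sperm flagellum, rose by a like amount (0.76), to 172, 233 and 189 in Dmrt mGS, against 111, 121 and 115 in iPS, although GS lines read 75.1 to 91.2. For both Adam4 and Tekt5, iPS and GS were below background, and the Dmrt mGS mean was at least 1.14-fold and 1.22-fold higher than iPS.

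Chac1, which encodes an enzyme that breaks down glutathione and is switched on by the amino acid stress factor ATF4, had 1078, 1760.4 and 1654 in Dmrt mGS, against 560.2, 594 and 678 in iPS (1.27 ± 0.23, adjusted p = 0.013). Every Dmrt mGS line was above every iPS line. The other routes read 893 to 1350 for Chac1 and spontaneous mGS 581 to 1245. Alox5ap, needed for leukotriene synthesis, had 652, 434 and 442 in Dmrt mGS, against 234, 219 and 376 in iPS (0.90 ± 0.19, adjusted p = 0.033) and was also higher than in spontaneous mGS (1.20, adjusted p = 0.04). Dnmt mGS read 442 to 543 for Alox5ap, Sox2 mGS 203 to 252 and Oct4 mGS 288 to 338. Gm7265 had 594, 292 and 257 in Dmrt mGS, against 103, 129 and 163 in iPS, at least 2.2-fold higher (1.45 ± 0.28, adjusted p = 0.017). Its levels were 346 to 491 in Dnmt mGS and 375 to 424 in GS, but 115 to 182 in Sox2 mGS and 140 to 174 in Oct4 mGS. The remaining genes among the 12 called ones with the highest differences were Tns1, a focal adhesion protein gene (0.93), D130040H23Rik (0.92), Nrros, which encodes a membrane partner of latent TGF-β (0.88), 4930402H24Rik (0.82) and Prrg1, a transmembrane Gla protein gene (0.80). Of the 6 probe sets of Tns1 only the brightest was used. Calls were lost for Gm7265 without Dmrt mGS 1 (1.08), iPS 1 (1.29) or iPS 2 (1.45), Zcwpw1 without Dmrt mGS 1 (1.07), iPS 1 (1.45) or iPS 2 (1.17) and Chac1 without Dmrt mGS 2 (1.13), Dmrt mGS 3 (1.18), iPS 1 (1.21) or iPS 2 (1.25). They were also lost for Tns1 without any 1 line (0.84 to 1.06), Alox5ap without Dmrt mGS 1 (0.71), Dmrt mGS 3 (0.99), iPS 1 (0.80) or iPS 2 (0.75) and Nrros without any 1 line other than iPS 5 (0.80 to 0.88). Single lines likewise decided the calls of Adam4 without any 1 line other than Dmrt mGS 3 (0.65 to 0.90), 4930402H24Rik without any 1 line other than iPS 5 (0.68 to 0.95) and Prrg1 without any 1 line (0.72 to 0.89). The same held for Tekt5 without any 1 line (0.64 to 0.86).

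Among the genes that fell, AU015836, an X-linked gene, had 101, 176 and 209 in Dmrt mGS, against 992, 699 and 1185 in iPS, at least 5.81-fold lower (−2.59 ± 0.39, adjusted p = 0.0059). ES read 367 to 457, between the groups compared, and spontaneous mGS 430.2 to 776, which reached into the range of iPS. Aard had 103, 127 and 163 in Dmrt mGS, against 833, 407 and 495 in iPS, at least 3.43-fold lower (−2.10 ± 0.39, adjusted p = 0.016), while the other routes read 69.8 to 119 and ES 145 to 361. Rpl39l, a ribosomal protein gene best known from male germ cells, had 232, 213 and 264 in Dmrt mGS, against 980.0, 676 and 649 in iPS (−1.68 ± 0.29, adjusted p = 0.01), while GS read 1301 to 1591. The GS-derived Dmrt mGS were thus farther below GS than iPS were.

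Fgfbp1, whose product carries FGF ligands out of the matrix, had 193, 254 and 249.5 in Dmrt mGS, against 654, 694 and 738 in iPS (−1.59 ± 0.27, adjusted p = 0.0093), with the lines of each group close together. Edn1, the endothelin-1 gene, had 80.3, 85.3 and 87.2 in Dmrt mGS, against 314, 292 and 139 in iPS, at least 1.45-fold lower (−1.47 ± 0.27, adjusted p = 0.015), and iPS 5 was below background while iPS 1 and 2 were above it. Rnu5g, a gene of the spliceosomal U5 RNA, had 139, 162 and 209 in Dmrt mGS, against 436, 503 and 439.5 in iPS (−1.45 ± 0.31, adjusted p = 0.032). Calls were lost for Aard without Dmrt mGS 1 (−1.94) or iPS 1 (−1.80), Rpl39l without iPS 1 (−1.49) and Fgfbp1 without iPS 1 (−1.63) or iPS 2 (−1.59). They were also lost for Edn1 without Dmrt mGS 1 (−1.44), Dmrt mGS 3 (−1.50), iPS 1 (−1.26) or iPS 2 (−1.31), Rnu5g without any 1 line (−1.61 to −1.32) and H3c15 without Dmrt mGS 1 (−1.20), iPS 1 (−1.42) or iPS 2 (−1.28). Those of AU015836 and Xrcc5 were kept without any 1 line of either group.

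A group of genes was low in Dmrt mGS in common with every other p53-knockdown route. This group was picked out after its values were seen, as called genes in which all 12 lentiviral lines lay below all 8 iPS, ES and spontaneous mGS lines, and it held 22 of the 98 genes that fell. Of all 19938 genes, 77 showed that order of lines. Xrcc5, which encodes the Ku80 subunit that binds broken DNA ends for repair, had 833, 677 and 871 in Dmrt mGS, against 2469.6, 2489 and 2281 in iPS (−1.61 ± 0.19, adjusted p = 0.001). The 9 lines of the other routes read 527 to 1144, spontaneous mGS 2251 to 2612, ES 2366 to 2479.6 and GS 1139 to 1311. By limma its difference from spontaneous mGS was −1.62, adjusted p = 0.013, and from the other routes −0.06, adjusted p = 0.94. The picking had already set every Dmrt mGS line below every spontaneous mGS line, so the former is no separate result.

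Tsfm, a mitochondrial translation elongation factor gene, had 457, 414 and 428 in Dmrt mGS, against 1009, 922 and 844 in iPS (−1.09 ± 0.13, adjusted p = 0.001). Nipsnap3b, of a family of mitochondrial proteins, had 348, 310.1 and 349.8 in Dmrt mGS, against 699.7, 703 and 677 in iPS (−1.05 ± 0.15, adjusted p = 0.0051). Both groups were tight and far apart. By limma the differences from spontaneous mGS were −0.95, adjusted p = 0.016 and −1.04, adjusted p = 0.022, again with the order of lines set by the picking. Sgf29, which encodes the histone-reading subunit of the SAGA complex, had 262, 348 and 408 in Dmrt mGS, against 796, 811 and 811 in iPS (−1.27 ± 0.23, adjusted p = 0.013). Unlike the other three, Sgf29 was as high in GS (763 to 869) as in iPS, whereas GS read 489 to 512 for Tsfm and 396 to 412 for Nipsnap3b. The Sgf29 call was lost without Dmrt mGS 1 (−1.10), iPS 1 (−1.28) or iPS 2 (−1.27). Others of the 22 were Fam72a (−1.22), Rab27a, which moves secretory vesicles (−1.23), the folate enzyme gene Shmt1 (−0.75) and the histone acetyltransferase gene Hat1 (−0.49).

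In the opposite order, 19 of the 71 genes that rose were higher in all 12 lentiviral lines than in all 8 iPS, ES and spontaneous mGS lines. Of all 19938 genes, 111 showed that order. The 19 included Dync1h1, the heavy chain of the dynein motor (3089, 2728 and 2772 in Dmrt mGS, against 2039, 2003 and 2035 in iPS, 0.50, adjusted p = 0.02), Tnrc6b, a partner of Argonaute in microRNA silencing (1305, 1333 and 1210.4 in Dmrt mGS, against 815, 803 and 897 in iPS, 0.61, adjusted p = 0.0092), and the tyrosine kinase gene Abl1 (1748, 1352 and 1232 in Dmrt mGS, against 863, 838 and 892 in iPS, 0.72, adjusted p = 0.019). GS lines were above every Dmrt mGS line for Dync1h1 (3517 to 3720.0) and Tnrc6b (1857 to 2109.8). Calls were lost for Dync1h1 without any 1 line other than Dmrt mGS 2 (0.44 to 0.52), Tnrc6b without iPS 1 (0.60) or iPS 2 (0.58) and Abl1 without Dmrt mGS 1 (0.58), iPS 1 (0.72), iPS 2 (0.70) or iPS 5 (0.75). They were also lost for Rab27a without iPS 1 (−0.98), Shmt1 without any 1 line (−0.84 to −0.67) and Hat1 without any 1 line other than Dmrt mGS 3 (−0.51 to −0.46). The lentiviral vector and the p53 knockdown come together in these lines and cannot be told apart. Spontaneous mGS, labelled with neither, lay on the side of iPS and ES by the way these genes were picked. GS lines had no part in the picking. They read 219 to 264 for Fam72a, near the 248, 260 and 261 of Dmrt mGS. For Hat1 they read 4089 to 4492, above the 3220, 3290 and 3577 of Dmrt mGS. Whether levels were kept from the GS source was not tested.

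**Figure D4:**
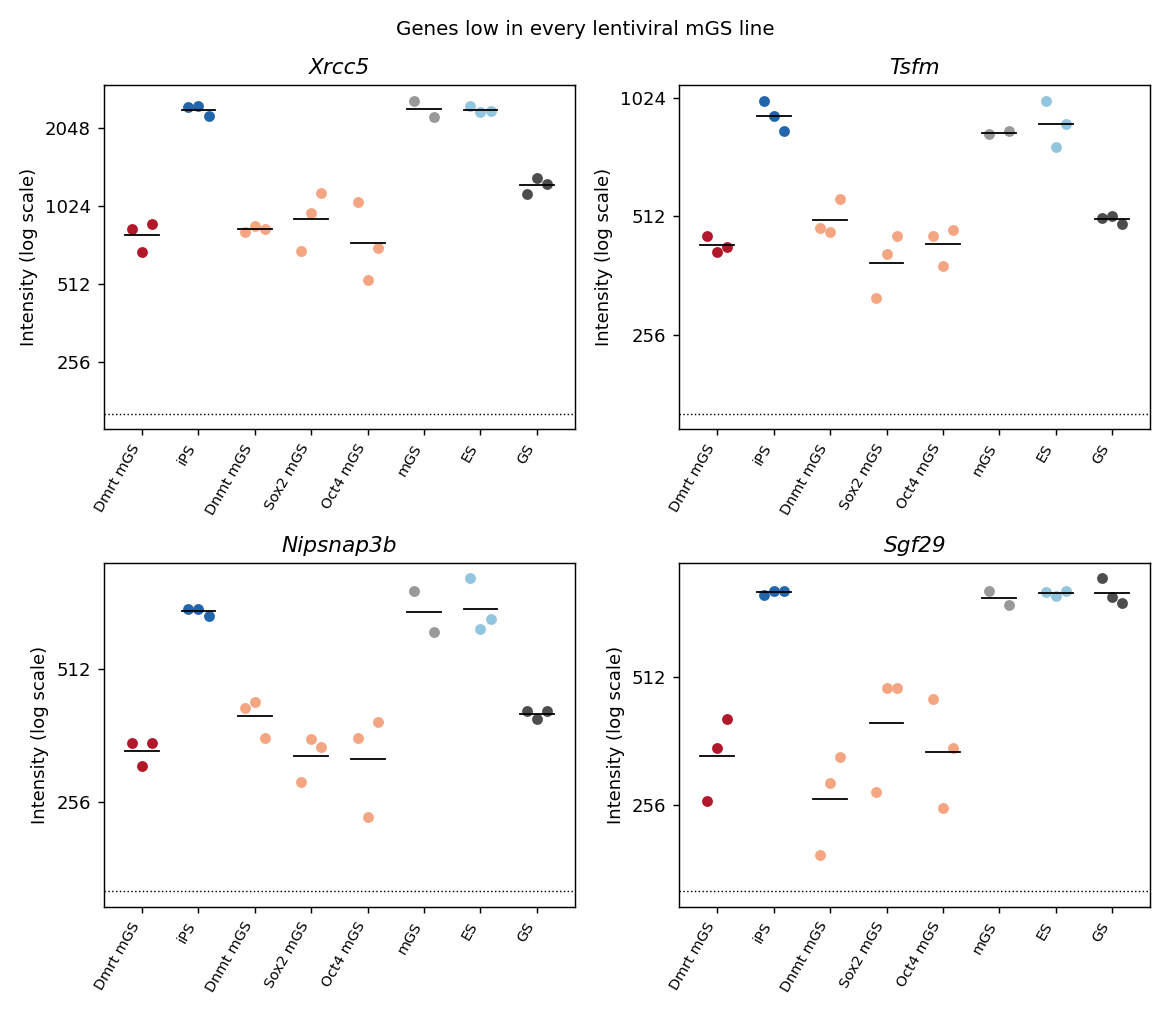
Intensity of Xrcc5, Tsfm, Nipsnap3b and Sgf29 (log scale) in each line of the 8 groups. Points are lines, bars are means of log2 values and the dotted line is background. The Dmrt mGS points sit with those of the Dnmt, Sox2 and Oct4 routes, below iPS, spontaneous mGS and ES, and GS joins the high lines for Sgf29 only.

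MicroRNA genes made up 10 of the 98 genes that fell and none of those that rose, and 4 of the 10 were below background in both groups. MicroRNAs are short RNAs that pair with messenger RNAs through their seed, bases 2 to 8, and repress them. The set was noticed after its values were seen. Of 299 microRNA genes measured, 10 fell, 0 rose and 289 did not pass, beside 0.492% of all genes that fell and 0.356% that rose. Their median difference was 0.03 against 0.08 for all genes, and 103 were above background in at least one group. Of the 10, 8 belong to 3 clusters known to favour proliferation or to restrain it. The Mir17 cluster on chromosome 14 and its X-linked copy, the Mir106a cluster, are known as targets of Myc-family factors. The Mir15b cluster on chromosome 3 carries microRNAs that repress cyclins. Mature sequences are shown because the genes that fell share few seeds; they are from RefSeq (GRCm38.p6), 5′ to 3′, with the seed in capitals.

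The first seed is shared by microRNAs from Mir17, Mir20a, Mir106a and Mir20b, and Mir18 has a related one:
miR-17-5p: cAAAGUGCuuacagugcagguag
miR-20a-5p: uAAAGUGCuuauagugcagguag
miR-106a-5p: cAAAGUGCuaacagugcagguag
miR-20b-5p: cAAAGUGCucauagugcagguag
miR-18a-5p: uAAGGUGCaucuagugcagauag
The second is shared by Mir19a and by Mir19b-1 and Mir19b-2, whose mature products from the 3′ arm are identical:
miR-19a-3p: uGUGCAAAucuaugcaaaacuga
miR-19b-3p: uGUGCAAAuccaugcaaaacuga
The third is shared by Mir92-2 and Mir363:
miR-92a-3p: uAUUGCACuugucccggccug
miR-363-3p: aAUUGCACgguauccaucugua
The fourth is shared by Mir15b, Mir16-2 and their relatives Mir15a and Mir16-1 on chromosome 14:
miR-15b-5p: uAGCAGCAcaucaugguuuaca
miR-16-5p: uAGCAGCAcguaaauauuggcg
miR-15a-5p: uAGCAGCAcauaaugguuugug

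In the Mir17 cluster, Mir20a had 76.3, 97.5 and 107 in Dmrt mGS, against 235, 236 and 286 in iPS, at least 1.56-fold lower (−1.44 ± 0.26, adjusted p = 0.014), and Mir19b-1 had 155, 192 and 222 in Dmrt mGS, against 370.2, 387 and 437 in iPS (−1.08 ± 0.24, adjusted p = 0.041). The lines did not overlap for either. Lines of the other routes read 58.1 to 144 for Mir20a and GS 43.3 to 55.6, all below background, while ES read 106 to 194. Mir18, Mir19a and Mir17 did not pass (−1.21, adjusted p = 0.078, and −0.71 without Dmrt mGS 1; −1.24, adjusted p = 0.083, and −0.70 without Dmrt mGS 1; and −0.49, adjusted p = 0.053). Mir18 had 127, 350.1 and 370.1 in Dmrt mGS, against 559, 599.8 and 604 in iPS and Mir19a had 117, 372 and 341 in Dmrt mGS, against 527, 583 and 632 in iPS, with Dmrt mGS 1 below background and Dmrt mGS 2 and 3 nearer to iPS. The host transcript Mir17hg showed the same order, with 163, 460.0 and 406 in Dmrt mGS, against 497, 527 and 516 in iPS (−0.72, adjusted p = 0.17, and −0.25 without Dmrt mGS 1).

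In the X-linked cluster 4 of 5 measured genes fell. Mir19b-2 had 79.5, 94.7 and 115 in Dmrt mGS, against 239, 229 and 263 in iPS, at least 1.51-fold lower (−1.35 ± 0.17, adjusted p = 0.0014), and Mir92-2 had 196, 208 and 219 in Dmrt mGS, against 289, 277 and 327 in iPS (−0.52 ± 0.11, adjusted p = 0.033). Mir20b (46.7, 37.4 and 43.1 in Dmrt mGS, against 87.8, 89.1 and 99.5 in iPS, −1.12 ± 0.17, adjusted p = 0.0061) and Mir106a (54.4, 61.1 and 63.1 in Dmrt mGS, against 95.2, 104 and 95.7 in iPS, −0.73 ± 0.13, adjusted p = 0.013) were below background in both groups, so that no fold is given. Mir363, with 48.4, 254 and 164 in Dmrt mGS, against 279, 312 and 332 in iPS, did not pass (−1.28, adjusted p = 0.17, and −0.59 without Dmrt mGS 1). Mir19b-2, Mir20b and Mir106a also fell relative to spontaneous mGS (−1.33, adjusted p = 0.016; −1.23, adjusted p = 0.02; and −0.85, adjusted p = 0.039). For Mir19b-2, Dnmt mGS read 67.4 to 94.8 and GS 47.2 to 66.2, below background like Dmrt mGS. Sox2 mGS read 129 to 157 for it, Oct4 mGS 161 to 206 and ES 144 to 211. Related genes of the Mir106b cluster, Mir106b, Mir93 and Mir25, did not pass (−0.28, −0.36 and −0.46).

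Mir15b, of the fourth seed family, had 75.7, 55.2 and 51.6 in Dmrt mGS, against 217, 234 and 189 in iPS, at least 1.32-fold lower (−1.82 ± 0.27, adjusted p = 0.0059). Lines of the other routes read 56.6 to 101 for Mir15b and GS 72.5 to 98.8, all below background. ES read 90.8 to 249 and spontaneous mGS 159 to 185. A low Mir15b was thus not particular to Dmrt mGS. Mir16-2, the neighbour of Mir15b, was below background in both groups, with 67.0, 62.4 and 69.6 in Dmrt mGS, against 102, 112 and 103 in iPS (−0.67 ± 0.13, adjusted p = 0.02). Mir16-1, which yields the same mature miR-16-5p from chromosome 14, had 128, 102 and 106 in Dmrt mGS, against 108, 114 and 113 in iPS, with groups that overlapped, and Mir15a had 254, 230.0 and 183 in Dmrt mGS, against 293, 409 and 341 in iPS (−0.64, adjusted p = 0.29). Outside these clusters Mir677 (−0.98) and Mir3068 (−0.37) fell, with Mir3068 below background in both groups. Calls were lost for Mir16-2 without any 1 line (−0.71 to −0.63), Mir20a without Dmrt mGS 1 (−1.30), iPS 1 (−1.49), iPS 2 (−1.49) or iPS 5 (−1.35) and Mir19b-1 without any 1 line (−1.21 to −0.95). They were also lost for Mir106a without Dmrt mGS 1 (−0.66), iPS 1 (−0.75) or iPS 2 (−0.68), Mir92-2 without any 1 line (−0.57 to −0.45) and Mir677 without Dmrt mGS 3 (−0.92), iPS 1 (−0.88) or iPS 2 (−0.93). Single lines likewise decided the calls of Mir3068 without any 1 line (−0.42 to −0.35). The sources used here do not say if these probes read the primary transcript or the mature RNA, and near-identical copies may share probes.

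**Figure D5:**
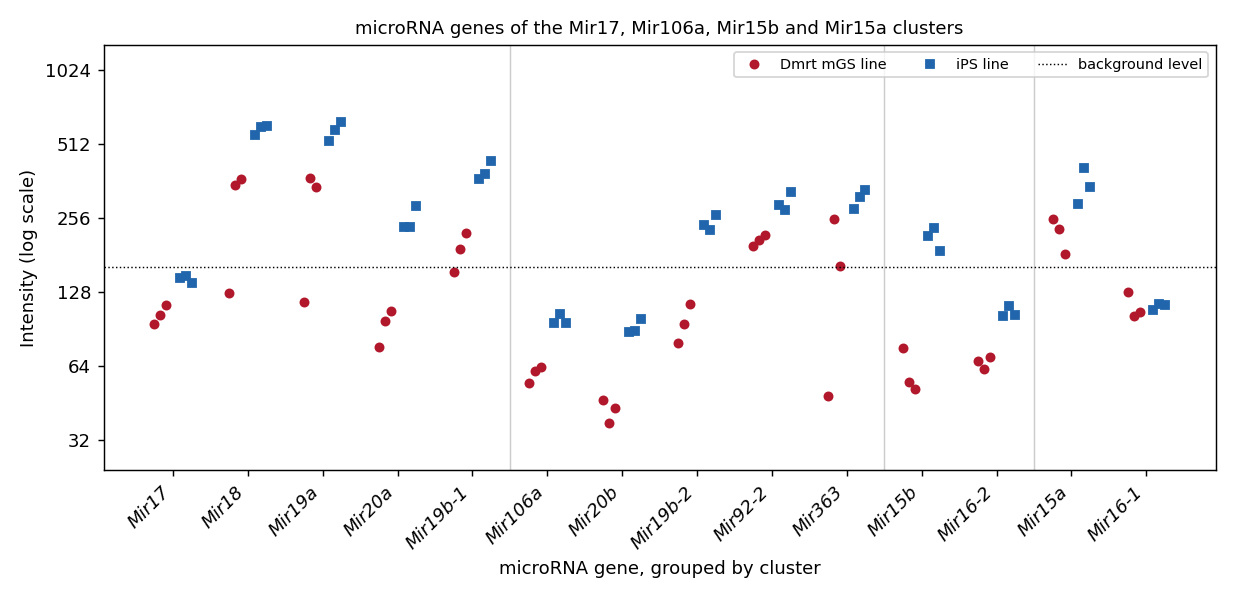
Intensity (log scale) of 14 microRNA genes of 4 clusters in the 3 Dmrt mGS lines (circles) and the 3 iPS lines (squares). Vertical lines part the clusters and the dotted line is background. The groups separate for each gene but Mir16-1, and Dmrt mGS 1 is far below the other Dmrt mGS lines for Mir18, Mir19a and Mir363.

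Members of other classes of short or non-polyadenylated transcripts also fell, again classes chosen after the values were seen. Their counts stand beside 0.492% of all genes that fell and 0.356% that rose. Of 22 core histone cluster genes, which are made in S phase to package new DNA, 4 fell and 0 rose, 18 did not pass and the median difference was −0.25. H2ac4 had 1308, 1802 and 1913 in Dmrt mGS, against 3956, 3788 and 2792 in iPS (−1.07 ± 0.21, adjusted p = 0.02), H3c15 had 105, 163 and 147 in Dmrt mGS, against 342, 411 and 321 in iPS (−1.39 ± 0.25, adjusted p = 0.013), and H3c4 and H4c9 fell by less (−0.57 and −0.42). H2ac4, H3c4 and H4c9 were among the called genes described above as low in all 12 lentiviral lines, and H3c15 was not. The mean level of the histone genes was 1364, 1851 and 1876 in Dmrt mGS, against 1946 to 2207 in iPS. It was 1461 to 1733 in the lines of the other routes. Of 51 small nucleolar RNA genes, which guide ribosomal RNA modification, 2 fell and 49 did not pass, with a median of −0.27. Snora20 had 206, 317 and 281 in Dmrt mGS, against 600.1, 588 and 433 in iPS (−1.02 ± 0.17, adjusted p = 0.0092), and Snora41 had 324, 373 and 331 in Dmrt mGS, against 640.1, 778 and 570.5 in iPS (−0.94 ± 0.17, adjusted p = 0.013). The mean level of all 51 was 830.1, 936 and 962 in Dmrt mGS, against 1104, 1137 and 1009 in iPS. It was 613 to 884 in the lines of the other routes. The part of this level in the results on microRNA and histone genes was not tested.

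Among 35 subunit genes of respiratory complex I, Ndufc1 (1061, 1064 and 1092 in Dmrt mGS, against 1664, 1744 and 1712 in iPS, −0.67, adjusted p = 0.017), Ndufb3 (−0.48) and Ndufs6 (−0.41) fell, 32 did not pass, and the median was −0.07. Of 61 ribosomal protein genes, Rpl39l and Rpl14 (−0.72) fell and 59 did not pass. These class counts also stand beside 0.492% of all genes that fell. Values were below 0 for 56 of the 61, with a median of −0.15 against 0.08 for all genes. Calls were lost for H2ac4 without Dmrt mGS 1 (−0.90), iPS 1 (−0.98) or iPS 2 (−1.01), H3c4 without any 1 line (−0.61 to −0.51) and H4c9 without any 1 line other than iPS 5 (−0.45 to −0.36). They were also lost for Snora20 without iPS 1 (−0.94) or iPS 2 (−0.95), Snora41 without Dmrt mGS 1 (−0.90), Dmrt mGS 3 (−0.92), iPS 1 (−0.96) or iPS 2 (−0.82) and Ndufc1 without any 1 line (−0.69 to −0.65). Single lines likewise decided the calls of Ndufb3 without iPS 2 (−0.44), Ndufs6 without any 1 line other than iPS 5 (−0.44 to −0.35) and Rpl14 without Dmrt mGS 1 (−0.55), iPS 1 (−0.74) or iPS 2 (−0.70).

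Gene lists for the state and origin of the cells held few called members, given beside 0.492% of all genes that fell and 0.356% that rose. In 34 spermatogonial genes 2 fell, Egr2 and Taf4b, a germ cell subunit of TFIID (887, 936 and 855 in Dmrt mGS, against 1232, 1225 and 1102 in iPS, −0.41, adjusted p = 0.046), and the median was −0.01. In 20 primitive endoderm genes Foxq1 fell (129.5, 129 and 131 in Dmrt mGS, against 179, 167 and 203 in iPS, −0.49, adjusted p = 0.025), and in 6 genes of a 2-cell-like state the initiation factor gene Eif1a fell (1426, 1478 and 1546 in Dmrt mGS, against 1979, 1921 and 1815 in iPS, −0.36, adjusted p = 0.039), a factor that all cells use. Calls were lost for Taf4b without any 1 line (−0.46 to −0.38), Foxq1 without any 1 line (−0.55 to −0.41) and Eif1a without any 1 line (−0.40 to −0.33). In the other lists 0 genes passed limma's adjusted threshold, and the counts at an unadjusted p below 0.05 that follow stand beside 12.7% of all genes higher and 6.38% lower.

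Naive pluripotency genes, which hold the ES state, were on the low side without passing: of 29, 24 had a value below 0, 0 were higher and 2 lower at the unadjusted level, and the median was −0.28. Dppa3, a maternal and germline chromatin factor gene, had 633, 182 and 192 in Dmrt mGS, against 476, 557 and 559 in iPS (−0.91, adjusted p = 0.34, and −1.50 without Dmrt mGS 1). Esrrb, an orphan nuclear receptor gene, had 2407, 830.1 and 1269 in Dmrt mGS, against 2957, 2797 and 1558 in iPS (−0.78, adjusted p = 0.55, and −1.19 without Dmrt mGS 1). For both, Dmrt mGS 1 lay nearer to iPS than Dmrt mGS 2 and 3, and without it the median of the list was −0.48. Of 19 primed epiblast genes 2 were higher and 1 lower. Zic2, a zinc finger gene of the formative epiblast, had 2277, 4136 and 3257 in Dmrt mGS, against 1739, 1858 and 1436 in iPS (0.91, adjusted p = 0.15), with every Dmrt mGS line above every iPS line.

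Germline genes were on the high side without passing. Of 44 germline, meiosis and piRNA genes 35 had a value above 0, 10 were higher and 2 lower. Their median was 0.33, or 0.14 without Dmrt mGS 1, against 0.08 for all genes. Only 24 of the 44 had a group mean above background in Dmrt mGS and 21 in iPS, so many of these values lie near the floor. Slc25a31, the germ cell ADP/ATP carrier gene, had 445, 202 and 206 in Dmrt mGS, against 130.4, 74.3 and 186 in iPS (1.12, adjusted p = 0.1, and 0.74 without Dmrt mGS 1). Smc1b, a meiotic cohesin gene, had 460.2, 105 and 147 in Dmrt mGS, against 129.6, 48.1 and 131 in iPS (1.04, adjusted p = 0.43, and 0.41 without Dmrt mGS 1). Dmrt mGS 1 was the highest line for both. The groups overlapped for Smc1b, which was below background in every line but Dmrt mGS 1. Tdrd5, which acts in piRNA production, was among the 9 members below 0, with 96.8, 221 and 216 in Dmrt mGS, against 278, 392 and 442 in iPS (−1.13, adjusted p = 0.1, and −0.74 without Dmrt mGS 1).

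Targets of p53 were on the low side without passing. Of 32 measured, 25 had a value below 0, 0 were higher and 8 lower at the unadjusted level, and the median was −0.34, or −0.24 without Dmrt mGS 1. Perp, which encodes a membrane protein of p53-driven cell death, had 159.7, 665 and 635 in Dmrt mGS, against 1162, 1745 and 2106 in iPS (−1.99, adjusted p = 0.11, and −1.32 without Dmrt mGS 1). Plk2, a polo-like kinase gene, had 214, 833 and 869 in Dmrt mGS, against 1389, 1932 and 1576 in iPS (−1.59, adjusted p = 0.13, and −0.93 without Dmrt mGS 1). Gadd45a, a growth arrest gene, had 221, 571 and 685 in Dmrt mGS, against 1146, 939 and 1075 in iPS (−1.25, adjusted p = 0.11, and −0.75 without Dmrt mGS 1). For each of them the groups did not overlap and Dmrt mGS 1 was the lowest.

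Of 32 genes of the LIF, Nodal, BMP and FGF pathways, which maintain or prime ES cells, 0 were higher and 6 lower, with a median of −0.44, or −0.12 without Dmrt mGS 1. Spry4, a feedback inhibitor of FGF signalling, had 112, 1452 and 1703 in Dmrt mGS, against 1956, 1710.2 and 1602 in iPS (−1.43, adjusted p = 0.42, and −0.15 without Dmrt mGS 1). Fos, an immediate early gene, had 166, 978 and 841 in Dmrt mGS, against 1183, 1455 and 1403 in iPS (−1.38, adjusted p = 0.22, and −0.56 without Dmrt mGS 1). Id3, a BMP target, had 59.8, 441 and 362 in Dmrt mGS, against 575, 592 and 427 in iPS (−1.31, adjusted p = 0.33, and −0.40 without Dmrt mGS 1). Dmrt mGS 1 was the lowest line by far for each, with Spry4 and Id3 below background, while Dmrt mGS 2 and 3 lay within or just below the range of iPS for Spry4 and Id3.

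Of 20 trophoblast genes 1 was higher and 6 lower at the unadjusted level, with a median of −0.14, or −0.07 without Dmrt mGS 1. Krt8, a keratin gene of simple epithelia, had 334, 789.8 and 623 in Dmrt mGS, against 1293, 2378 and 3016 in iPS (−1.94, adjusted p = 0.11), and its partner Krt18 had 413, 683 and 656 in Dmrt mGS, against 1169, 1952 and 2779 in iPS (−1.70, adjusted p = 0.11). Tfap2c, a transcription factor gene of trophoblast and germ cells, had 715, 189 and 248 in Dmrt mGS, against 769.6, 822 and 1128 in iPS (−1.47, adjusted p = 0.18). All lines of Dmrt mGS were below all lines of iPS for these genes. Among 17 DNA methylation genes 2 were higher and 0 lower. Tet3, which encodes a 5-methylcytosine oxidase, came nearest to the threshold with 277, 305 and 266 in Dmrt mGS, against 196, 186 and 218 in iPS (0.50, adjusted p = 0.061). Dnmt3a, a de novo methyltransferase gene, had 1016, 2916 and 2662 in Dmrt mGS, against 854, 726 and 1139.8 in iPS (1.16, adjusted p = 0.17), with Dmrt mGS 1 within the range of iPS and Dmrt mGS 2 and 3 above it.

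Imprinted genes set Dmrt mGS 1 apart. Among 20 paternally expressed ones 14 had a value above 0, 2 were higher and 0 lower, and the median was 0.23, or 0.40 without Dmrt mGS 1. Mest, which encodes a hydrolase-like protein of mesoderm, had 1164, 3922 and 3450.0 in Dmrt mGS, against 1712, 1868 and 1706 in iPS (0.51, adjusted p = 0.37), and it passed without Dmrt mGS 1 (1.06, adjusted p = 0.034). Peg10, a retrotransposon-derived gene of the placenta, had 857, 6614 and 7267 in Dmrt mGS, against 7795, 8188 and 8792 in iPS (−1.26, adjusted p = 0.31, and −0.25 without Dmrt mGS 1). Sgce, its neighbour in the same imprinted domain, had 145, 522 and 504 in Dmrt mGS, against 568, 575 and 876 in iPS (−0.97, adjusted p = 0.32, and −0.36 without Dmrt mGS 1). Nnat, the neuronatin gene, had 206, 3779 and 2806 in Dmrt mGS, against 1733, 2551 and 2865 in iPS (−0.85, adjusted p = 0.56, and 0.48 without Dmrt mGS 1). Dmrt mGS 1 was the lowest of the 6 lines for each of them. Of 17 maternally expressed imprinted genes 0 were higher and 2 lower. Ppp1r9a, of the same domain as Peg10, had 157, 312 and 321 in Dmrt mGS, against 430.1, 351 and 335 in iPS (−0.56, adjusted p = 0.22, and −0.22 without Dmrt mGS 1).

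In the list of Y-linked genes and Xist, 5 were measured, 2 had a value above 0, and 0 had an unadjusted p below 0.05 in either direction. Eif2s3y, a translation initiation factor gene, had 371, 733 and 197 in Dmrt mGS, against 1208, 1113 and 1176 in iPS (−1.63, adjusted p = 0.35). Uty, a histone demethylase family gene, had 242, 512 and 117 in Dmrt mGS, against 657, 687 and 731 in iPS (−1.50, adjusted p = 0.36). Each Dmrt mGS line was below each iPS line for both, and Dmrt mGS 3 was the lowest. Kdm5d, another Y-linked histone demethylase gene, had 257, 251 and 193 in Dmrt mGS, against 199, 164 and 204 in iPS, and the groups overlapped. Of 15 glycolysis genes 14 had a value below 0, 0 were higher and 2 lower, and the median was −0.14. Pdk1, which diverts pyruvate from the mitochondria, had 307, 1588 and 1738 in Dmrt mGS, against 1987, 1819 and 2317 in iPS (−1.10, adjusted p = 0.23, and −0.29 without Dmrt mGS 1), again with Dmrt mGS 1 far below the rest.

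Of 20 proliferation genes 1 was higher and 2 lower, with a median of −0.05, or −0.12 without Dmrt mGS 1. Of 17 G1 cyclins and inhibitors 1 was higher and 2 lower, with a median of 0.04, or 0.02 without Dmrt mGS 1. Rb1, which encodes the retinoblastoma protein that holds cells before S phase, had 303, 451 and 464 in Dmrt mGS, against 557, 739 and 1032 in iPS (−0.91, adjusted p = 0.12). Of 19 interferon and MHC class I genes 1 was higher and 0 lower, with a median of 0.09, or 0.19 without Dmrt mGS 1. Of 15 testis somatic genes 1 was higher and 1 lower, with a median of 0.12. Wt1, a transcription factor gene of Sertoli and other mesodermal cells, had 146, 1125 and 1179 in Dmrt mGS, against 364, 299 and 447 in iPS (0.66, adjusted p = 0.61, and 1.66 without Dmrt mGS 1): it was high in Dmrt mGS 2 and 3, the lines in which the feeder list was high.

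Only 6 genes passed both against iPS and against the other induced routes in the same direction: Adam4 was higher, and Egr2, 0610040B10Rik, Dcaf13, Copz1 and Crls1 were lower. Egr2, a zinc finger gene of the early response to growth factors, had 131, 344 and 190.5 in Dmrt mGS, against 397, 518 and 407 in iPS (−1.10 ± 0.25, adjusted p = 0.047). Against the other routes the difference was −1.01, adjusted p = 0.039, but those routes were far apart: Dnmt mGS lines read 115 to 127, below Dmrt mGS, and Sox2 and Oct4 mGS 965 to 1099 and 457 to 641. Both knockdown routes were thus low and both factor routes high. Adam4 was at 76.1 to 163 in the 9 lines of the other routes (0.79, adjusted p = 0.023), with Dmrt mGS 1 and 2 above them all and Dmrt mGS 3 below background. 0610040B10Rik had 99.6, 86.3 and 97.2 in Dmrt mGS, against 181, 193 and 161 in iPS and 105 to 187 in the other routes, and it fell in all 3 comparisons (−0.92, −0.57 and −0.79 against iPS, the other routes and spontaneous mGS). All its Dmrt mGS and Dnmt mGS lines were below background, so that their order is not resolved.

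Dcaf13, a nucleolar protein gene of ribosomal RNA processing, had 1200.3, 1339 and 1253 in Dmrt mGS, against 1637, 1719.9 and 1574 in iPS (−0.38 ± 0.07, adjusted p = 0.02, and −0.36, adjusted p = 0.016 against the other routes). Copz1, a subunit of the COPI vesicle coat, had 1975, 2009 and 2105 in Dmrt mGS, against 2844, 2810.0 and 2708 in iPS (−0.46 ± 0.09, adjusted p = 0.016, and −0.35, adjusted p = 0.039 against the other routes). Dnmt mGS read 1299 to 1383 for Dcaf13 and 2090.0 to 2336 for Copz1. Crls1, the cardiolipin synthase gene, was at −0.43 against iPS and −0.34 against the other routes. Against iPS, calls were lost for Egr2 without any 1 line other than Dmrt mGS 2 (−1.16 to −0.77) and Dcaf13 without Dmrt mGS 1 (−0.34), Dmrt mGS 3 (−0.37), iPS 1 (−0.38) or iPS 2 (−0.35). They were also lost for Copz1 without Dmrt mGS 1 (−0.44), Dmrt mGS 2 (−0.45), iPS 1 (−0.44) or iPS 2 (−0.45) and Crls1 without Dmrt mGS 1 (−0.39), Dmrt mGS 3 (−0.40), iPS 1 (−0.41) or iPS 2 (−0.42). Against the other routes, the calls of Adam4 (0.60 to 0.92), 0610040B10Rik (−0.61 to −0.50) and Dcaf13 (−0.40 to −0.32) were lost without any 1 Dmrt mGS line, and that of Crls1 without Dmrt mGS 1 (−0.30) or Dmrt mGS 3 (−0.32). Those of Egr2 (−1.03 to −0.69) and Copz1 (−0.37 to −0.33) were lost without any 1 line of the iPS, spontaneous mGS and induced groups, except Oct4 mGS 3 for both, Dmrt mGS 2 for Egr2 and Sox2 mGS 1 for Copz1.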

How the data were processed

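RNA of 46 cultures from 23 lines was hybridised to whole-transcript arrays, per the labels' protocols. The authors deposited linear intensity for 28856 probe sets; how arrays were scaled to each other is not stated in the sources at hand, and the mouse build mm9 is named, per the submitters' processing notes. The 21789 probe sets with 1 gene symbol were kept (1621 had several and 5446 none in the platform annotation), of the 999 genes with several the brightest, which left 19938 genes; 21698 symbols were checked against RefSeq GRCm38.p6. Intensities were put on the log2 scale, the 2 cultures of a line averaged, and all 23 lines of 8 groups fitted with limma 3.58.1 in R 4.3.3 (lmFit, eBayes, 15 residual degrees of freedom, Benjamini-Hochberg over all genes at 0.05). The fit was tested on simulated data. Array number limits the precision. Lists and compared lines were chosen with earlier results of these data known. Genes named are the 12 highest and 12 lowest called, with lines that do not overlap and the brighter group above background; Mid1, Fam120c, Dmrt1 and the iPS factors; called members of each list, or else up to 3 with the largest differences; and up to 4 genes per direction that also passed against the other routes. Others were chosen after their values were seen. Tables were made with pandas 2.3.3 and numpy 2.4.6 in Python 3.11.15, and figures with matplotlib 3.10.9. Alternatives were other treatments of cultures and blocks, scaling, filters, an added 50 units, a trend, single lines left out, 1 culture left out and a feeder covariate.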

Additional observations from a re-analysis of the deposited data

Results flagged for a closer look

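For 6 of the genes that differed between Dmrt mGS and iPS, the effect also differed between the induced routes, by the limma contrast of Dmrt mGS minus the mean of the Dnmt, Sox2 and Oct4 routes. Egr2 differed by −1.01 ± 0.20, adjusted p = 0.039, with Dnmt mGS lower still (115 to 127) and Sox2 mGS highest (965 to 1099). 0610040B10Rik differed by −0.57 ± 0.10, adjusted p = 0.019, Dcaf13 by −0.36 ± 0.06, adjusted p = 0.016, Copz1 by −0.35 ± 0.07, adjusted p = 0.039 and Crls1 by −0.34 ± 0.06, adjusted p = 0.02. Adam4 was higher, by 0.79 ± 0.14, adjusted p = 0.023. For 0610040B10Rik all Dmrt mGS lines (99.6, 86.3 and 97.2) and all Dnmt mGS lines (105 to 116) were below background, so that their order is not resolved. For Adam4, Dmrt mGS 1 and 2 exceeded the highest line of the other routes (163), and Dmrt mGS 3 did not and was below background.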

How the results depend on the processing

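Counts of called genes moved with the way lines and cultures entered the fit. Against iPS, the other routes and spontaneous mGS, where 169, 63 and 13 genes passed, treating all arrays as independent gave 3930, 1741 and 1418, the line as a random block 758, 368 and 189, the culture number as a replicate block 738, 347 and 187, only the lines compared 7, 8 and 0 (0 against spontaneous mGS, with 1234 at an unadjusted p below 0.05), and the feeder covariate 826, 104 and 46. The line number as a replicate block gave 121, 27 and 4. Lines that share a number correlated in their deviations at r = 0.44 for number 1 and 0.08 for number 2, so that the numbers were not taken to pair the lines. Centring each array on its median gave 346 against iPS, 13.3% of them higher against 42.0% in the reported fit. Quantile normalization gave 101 against the other routes, and leaving out the 40% dimmest genes 8 against spontaneous mGS. With 1 line left out in turn the counts were 17 to 106, 2 to 226 and 0 to 19. Of the 24 called genes with the highest or lowest differences, 24 kept their calls as independent arrays, with either of the random and culture blocks, with probe sets averaged, with 50 units added, without the Oct4 mGS culture of high median and with the feeder covariate, 21 with quantile normalization, 22 when centred, 23 with a trend, 15 with the line number block and 2 with only the lines compared; without a line 6 (iPS 1) to 18 (iPS 5) did. None of the 24 changed direction. Directions turned for Cdkn2b (−0.015), Dmrt1 (−0.20) and Wt1 (−0.012) under the feeder covariate, and without 1 line Dmrt1 ranged over −0.23 to 0.53, Myc over −2.02 to 0.072 and Nnat over −1.62 to 0.48. The causes were not tested. The feeder covariate and the omission of 1 Oct4 mGS culture were chosen after seeing the data. Genes below 161 units cannot be told from background.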

Other observations

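Further genes separated Dmrt mGS 1 from Dmrt mGS 2 and 3, and are given as levels only, since they were picked for that contrast. Spic, an Ets-family gene, had 1258, 106 and 97.0 in Dmrt mGS, against 269, 242 and 194 in iPS. Prdm14, a pluripotency and germ cell regulator, had 876, 188 and 251 in Dmrt mGS, against 478, 457 and 279.9 in iPS, and Tcl1, which promotes ES cell self-renewal, had 2467, 350.2 and 549.6 in Dmrt mGS, against 1587, 1285 and 636 in iPS. These were highest in Dmrt mGS 1 and lower in Dmrt mGS 2 and 3 than in every iPS line. In the opposite order, Dusp6, a phosphatase gene induced by FGF signalling, had 257, 1893 and 1862 in Dmrt mGS, against 1416, 1744 and 1633 in iPS, and Lefty1, a Nodal antagonist, had 150.2, 1809.7 and 1653 in Dmrt mGS, against 417, 951 and 1638 in iPS. Fgf5, a gene of the primed epiblast, had 49.7, 862 and 376 in Dmrt mGS, against 147, 649 and 229.5 in iPS, and the matrix Gla protein gene Mgp had 34.6, 1952 and 1805 in Dmrt mGS, against 633, 441 and 433 in iPS. Dazl, a germ cell RNA-binding protein gene, had 1403, 392 and 378 in Dmrt mGS, against 538, 307 and 499.9 in iPS, and 15426 to 16328 in GS. Dnmt mGS lines also lay far apart for some of these genes, with Spic at 84.2 to 1545 and Mgp at 52.8 to 2530.0. For Dusp6 (229 to 1092) and Lefty1 (128 to 1169) they stayed below Dmrt mGS 2 and 3, and for Dazl (617 to 2094) above them.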
